A study of Arabidopsis thaliana with 8 samples.

Results

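The WRKY genes encode a large plant family of DNA-binding transcription factors, named after a short conserved stretch of amino acids in the domain that contacts DNA. They bind W-box elements in promoters, and their own genes often carry such elements, so that members regulate each other. In Arabidopsis the family is best known for responses to pathogens, wounding, senescence, drought and nutrient shortage, and the transcripts of many members change quickly after a stimulus. The family is divided into groups I, II and III by the number and type of WRKY domains, and group II is split further into IIa to IIe.

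Members were the probe sets whose 1 gene has a symbol made of WRKY and a number, with a signal of 20 or more on at least 2 of the 8 arrays. Of 17 WRKY probe sets that could be named, 14 passed, among 15893 of 22746 probe sets that passed the same signal rule. The platform annotation named 5 of the 14 (WRKY6, WRKY20, WRKY22, WRKY47 and WRKY53). The other 9 (WRKY11, WRKY25, WRKY33, WRKY40, WRKY43, WRKY46, WRKY54, WRKY56 and WRKY72) were named through the study's supplementary gene tables, which list genes by their rise in starved over fully nourished seedlings in experiment 1. For these 9 members the rise in experiment 1 is therefore a consequence of how they were named and supports nothing. WRKY56 is also among the genes that the study lists as changed in both experiments, so the same holds for its rise in experiment 2. RefSeq lists 67 Arabidopsis genes with a WRKY number, and 50 of them had no named probe set here and were not analysed here. WRKY54 lay just inside the signal rule, with a second-highest signal of 22.3. WRKY38 lay just outside, with signals of 42.4 in FN of experiment 2 and at most 7.1 on any other array. WRKY12 and WRKY42 stayed at or below 3.6 and 2.0 on all 8 arrays.

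The arrays measured whole 9-day-old wild-type Col-0 seedlings from shaken liquid cultures. Seedlings of the -S condition were grown with 150 µM sulfate for 7 days and then kept for 48 h in medium without sulfate. Seedlings of the 30' S and 3 h S conditions had the same history and were harvested 30 min or 3 h after 500 µM sulfate had been given back to the flask. FN seedlings (full nutrition) had 3 mM sulfate throughout and received fresh medium on day 7. Each of the 4 conditions was hybridised once in each of 2 experiments, so every condition has n = 2, and an array stands for the pooled seedlings of its sample. The -S, 30' S and 3 h S seedlings shared the -S medium, which the study lists with less nitrate and ammonium salt than FN medium, so sulfate and nitrogen supply cannot be told apart in any comparison with FN. Flasks were opened to give sulfate back, and opening and sulfate cannot be told apart in the resupply comparisons, since cultures handled with KCl are not among these arrays.

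Signals are the authors' MAS 5.0 intensities, which have no unit. Array medians lay between 41.9 and 47.6, and 33.0 to 35.8% of the probe sets on an array were below 20, so WRKY signals near or below 20 are imprecise. Differences were tested with limma on log2(signal + 16), with the experiment as a block and p adjusted by the Benjamini-Hochberg method over all 15893 probe sets (limit 0.05). The added 16 makes these fold changes smaller than the raw ratios at low signals. The sulfate treatment itself was clear on these arrays. All 10 sulfur starvation markers, among them SDI1 and LSU1, were called higher in -S than in FN and lower in 3 h S than in -S. Of these, SDI2 and BGLU28 alone were named by the platform annotation. The list was chosen with earlier results of these data known, so the count is a description. The root marker BGLU23 had 2701 to 3694 on every array. None of the 5 green tissue markers listed at first had a named probe set, and 4 photosynthesis genes chosen after their values were seen (LHCB4.1, LHCB4.2, PSAN and PSB27) took their place. Their summed signal was 1912 to 1958 on the -S medium arrays of experiment 1, against 5932 in FN of that experiment. In experiment 2 it was 3232 to 4129, against 4366 in FN. All 4 were lower than FN on each -S medium array of both experiments, whereas most WRKY signals were higher than in FN in experiment 1. The part of these 4 genes in the WRKY values was not tested. In whole seedlings fewer cells of a type and less RNA per cell cannot be told apart.

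Among the group I members, which carry a pair of WRKY domains, WRKY33 and WRKY25 had their highest signals in starved seedlings of experiment 1. WRKY33 (AT2G38470) is a target of the mitogen-activated kinases MPK3 and MPK6 and activates camalexin synthesis. Its signals were 122.4 in -S, 84.4 in 30' S and 59.5 in 3 h S, against 47.5 in FN of experiment 1. In experiment 2 they were 82.2, 64.9 and 59.6 in the same order, against 81.3 in FN. The order of the 3 -S medium conditions was thus the same in both experiments, whereas FN was the lowest of the 4 conditions in experiment 1 and close to -S in experiment 2. The raw -S over FN ratio was 2.58 in experiment 1 and 1.01 in experiment 2, and the log2 fold change of limma was 0.57 ± 0.26 (SE, adjusted p = 0.257, n = 2 per condition).

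WRKY25 (AT2G30250), which acts with WRKY33 in heat and salt tolerance, had 174.8 in -S, 158.2 in 30' S and 105.0 in 3 h S, against 65.2 in FN of experiment 1. In experiment 2 the signals were 123.8, 138.9 and 86.7, against 94.9 in FN. Both -S signals were above both FN signals, and 3 h S was the lowest of the -S medium conditions each time. The log2 fold change of -S over FN was 0.78 ± 0.22 (limma, adjusted p = 0.137). WRKY20 (AT4G26640) had 54.1 to 107.8 on all arrays and no -S over FN ratio above 1 (0.999 and 0.772).

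WRKY40 (AT1G80840), the only group IIa member named, works with WRKY18 and WRKY60 as a repressor of defence and abscisic acid response genes. Its signal was 91.8 in -S, 55.0 in 30' S and 47.3 in 3 h S, against 35.0 in FN of experiment 1. The signals of experiment 2 were 58.1, 49.2 and 49.0, against 50.4 in FN. Both -S signals were above both FN signals. The difference was 2.62-fold in experiment 1 and 1.15-fold in experiment 2, with a log2 fold change of 0.62 ± 0.22 that missed the limit (limma, adjusted p = 0.181).

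Of the group IIb members, WRKY72 (AT5G15130), a factor of basal defence, had 51.1 in -S, 97.5 in 30' S and 43.0 in 3 h S, against 15.8 in FN of experiment 1. The signals of experiment 2 were 53.6, 56.8 and 36.9, against 33.9 in FN. All 6 -S medium signals were above both FN signals. WRKY6 (AT1G62300), known from senescence and from repression of the phosphate exporter gene PHO1, had 57.2 in -S, 58.0 in 30' S and 46.5 in 3 h S, against 23.3 in FN of experiment 1. Experiment 2 gave 56.9, 65.1 and 58.8, against 52.1 in FN. The -S medium signals of WRKY6 lay between 46.5 and 65.1 in both experiments, and only FN of experiment 1 stood apart. WRKY6 is also the only annotation-named member whose -S over FN ratio passed 2 in an experiment (2.46, against 1.09 in experiment 2). WRKY47 (AT4G01720) had -S over FN ratios of 1.04 and 1.14.

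The group IIc members WRKY43 (AT2G46130) and WRKY56 (AT1G64000) were at the lower end of the range. WRKY56 had 24.2 in -S, 22.7 in 30' S and 24.1 in 3 h S, against 8.2 in FN of experiment 1. In experiment 2 it had 13.7, 15.9 and 17.4, against 6.8 in FN. WRKY43 had 33.9, 18.8 and 28.8 in experiment 1, against 0.8 in FN, and 13.1, 14.8 and 16.8 in experiment 2, against 5.0 in FN. For both genes all 6 -S medium signals exceeded both FN signals. Both passed the signal rule only through -S medium arrays of experiment 1, and both were named through the study's tables. Their excess over FN, and the p-values below, are therefore not independent of how they were selected. Since FN was below 20 in both experiments, and the -S medium signals of experiment 2 were as well, their raw ratios to FN are imprecise. Over the 3 -S medium conditions together, the log2 fold change against FN was 0.59 ± 0.12 for WRKY56 (limma, adjusted p = 0.0538). For WRKY43 it was 0.95 ± 0.21 (limma, adjusted p = 0.0662). These were the smallest adjusted p-values of any member in any comparison, and both missed the limit. That of WRKY56 was 0.0200 with an offset of 1 in place of 16 (1.02% of all probe sets called higher) and 0.0474 after quantile normalization (1.79%).

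WRKY11 (AT4G31550, group IId), a negative regulator of basal defence, had 55.2 in -S, 156.3 in 30' S and 70.7 in 3 h S, against 26.4 in FN of experiment 1. Experiment 2 gave 110.5, 131.2 and 78.9, against 85.6 in FN. The highest signal was that at 30 min in both experiments, 2.83 times -S in experiment 1 and 1.19 times in experiment 2. WRKY22 (AT4G01250, group IIe), which acts in the flagellin-triggered kinase pathway, stayed between 19.0 and 33.8 on all arrays, also with its highest signal at 30 min each time.

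The group III members WRKY46, WRKY53 and WRKY54 were those whose -S over FN ratio lay above 1 in experiment 1 and below 1 in experiment 2. The ratio was above 1 in experiment 1 for 13 of 14 members and in both experiments for 10. Over all probe sets tested these shares were 56.9% and 39.1%, and the pattern was not tested as a trait of the group. The rise of WRKY46 and WRKY54 in experiment 1 was part of how they were named. WRKY46 (AT2G46400), known from defence and from stomatal responses to drought, had 68.9 in -S, 48.1 in 30' S and 19.0 in 3 h S, against 20.8 in FN of experiment 1. In experiment 2 it had 39.2, 35.9 and 24.8, against 103.8 in FN, the highest signal of the gene on any array. The -S over FN ratio was 3.31 in experiment 1 and 0.378 in experiment 2. WRKY54 (AT2G40750), a partner of WRKY70 in salicylate signalling and senescence, was above 20 only in -S of experiment 1 (22.3) and in FN of experiment 2 (37.8). Its FN signal of experiment 1 was 1.1, and its -S signal of experiment 2 was 5.1. WRKY53 (AT4G23810), a regulator of leaf senescence, had 57.6 in -S, 36.3 in 30' S and 30.3 in 3 h S, against 42.2 in FN of experiment 1. The signals of experiment 2 were 42.3, 39.8 and 37.9, against 54.8 in FN. WRKY38, a group III gene that did not pass the signal rule, had its only signal above 20 in FN of experiment 2.

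**Figure D1:**
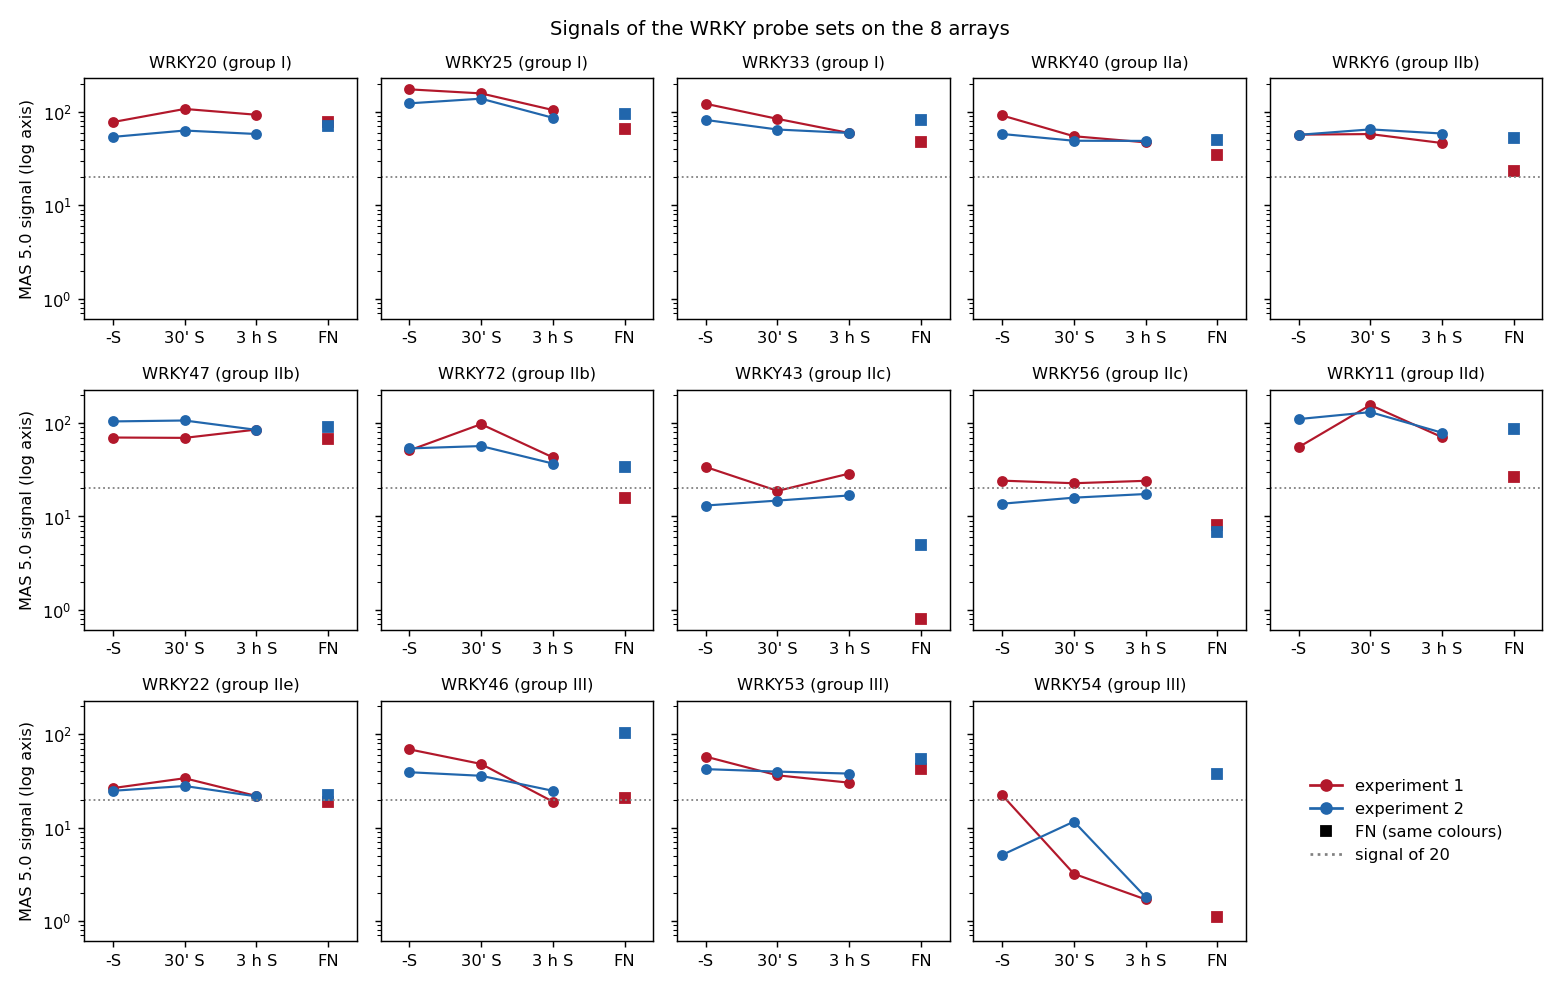
MAS 5.0 signals (log axis, no unit) of the 14 WRKY members in -S, 30' S, 3 h S and FN seedlings, 1 panel per gene and 1 point per array, with experiment 1 in red and experiment 2 in blue; lines join the -S medium conditions, squares are FN and the dotted line is a signal of 20. WRKY33, WRKY40, WRKY46 and WRKY53 are lower at each step along the line in both experiments, and the FN squares lie far apart for WRKY46 (103.8 in experiment 2, against 20.8 in experiment 1) and WRKY54 (37.8 in experiment 2, against 1.1 in experiment 1).

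The first comparison asked which WRKY transcripts changed during 48 h without sulfate. In experiment 1, 10 of the 14 members had a -S signal of 20 or more that was over 2 times FN, against 8.99% of all probe sets tested. Of these 10, 9 had been named through tables ordered by this ratio, so the count reads as a description. Among the 5 annotation-named members, WRKY6 alone passed 2. In experiment 2 none of the 14 passed the same rule, against 1.75% of all probe sets. The -S signals of WRKY43 and WRKY56 were 2.62 and 2.01 times FN in experiment 2, at signals below 20. The study counts WRKY56 as raised over 2-fold in both experiments, by detection calls and not by a signal of 20. Experiment 2 was thus not wholly outside the naming. In the other direction WRKY46 and WRKY54 had less than 0.5 times the FN signal in experiment 2, against 1.63% of all probe sets. WRKY54 passed the signal rule in part through that FN array. Of the 10 members past 2 in experiment 1, 8 had a ratio above 1 in experiment 2, which is near the 81.5% of all probe sets that passed 2 in experiment 1.

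No member was called by limma in -S over FN, where 0.938% of all probe sets were called higher and 0.585% lower. At an unadjusted p under 0.05, 6 members were higher (WRKY6, WRKY25, WRKY40, WRKY43, WRKY56 and WRKY72) and none was lower, against 11.6% and 10.3% of all probe sets. The median log2 fold change was 0.51 over the 14 members and 0.05 over all probe sets tested. Over the 5 annotation-named members it was 0.10, with values between -0.15 for WRKY20 and 0.50 for WRKY6. A low FN signal in experiment 1 was part of how 9 members were named, so counts of members higher than FN are a description. The call turned on the FN array of experiment 2. Without it, 9 members were called higher, namely the 6 above with WRKY11, WRKY33 and WRKY46, when 17.1% of all probe sets were called higher. Without the FN array of experiment 1 none was called, against 1.28% of all probe sets called higher. The methods' test, run on the same signals and adjusted, called no member and no probe set in any of the 5 pairwise comparisons.

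**Figure D2:**
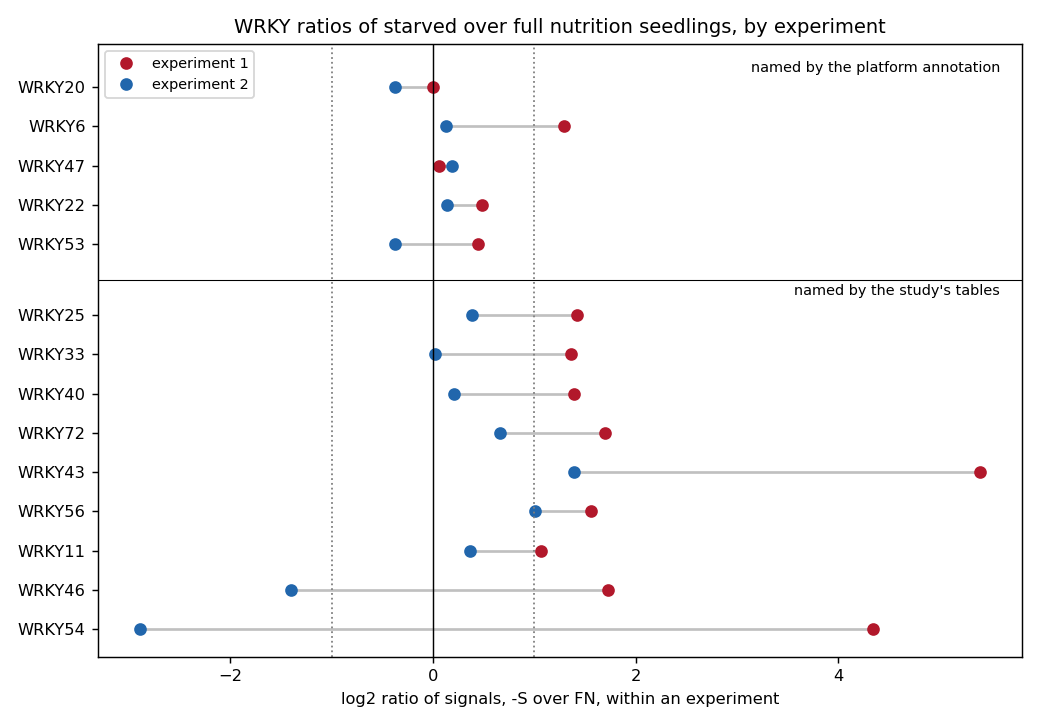
Log2 ratio of the -S over the FN signal within experiment 1 (red) and experiment 2 (blue) for the 14 WRKY members, with those named by the platform annotation above the line and those named by the study's tables below it; dotted lines mark a 2-fold difference. WRKY46 and WRKY54 lie right of 0 in experiment 1 and left of 0 in experiment 2, and the 9 lower genes are right of the 2-fold line in experiment 1 because of how they were named.

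The second question was how these transcripts responded when sulfate was given back. The 3 arrays on -S medium within an experiment allow 6 orders of the signals, grouped here by the place of 30' S. In 5 of 14 members (WRKY6, WRKY11, WRKY20, WRKY22 and WRKY72) the signal was highest at 30 min in both experiments, against 15.3% of all probe sets. In 4 of 14 (WRKY33, WRKY40, WRKY46 and WRKY53) it was lower at each step, in 30' S than in -S and in 3 h S than in 30' S, in both experiments, against 6.97% of all probe sets. None was higher at each step in both experiments (6.27% of all probe sets), and none was lowest at 30 min in both (12% of all probe sets). The other 5 members had different orders in the experiments. The sizes differed as well, and the 30' S over -S ratio of WRKY72 was 1.91 in experiment 1 and 1.06 in experiment 2. A high -S signal of experiment 1 was part of how 9 members were named, and that array is also the base of their resupply ratios in experiment 1.

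**Figure D3:**
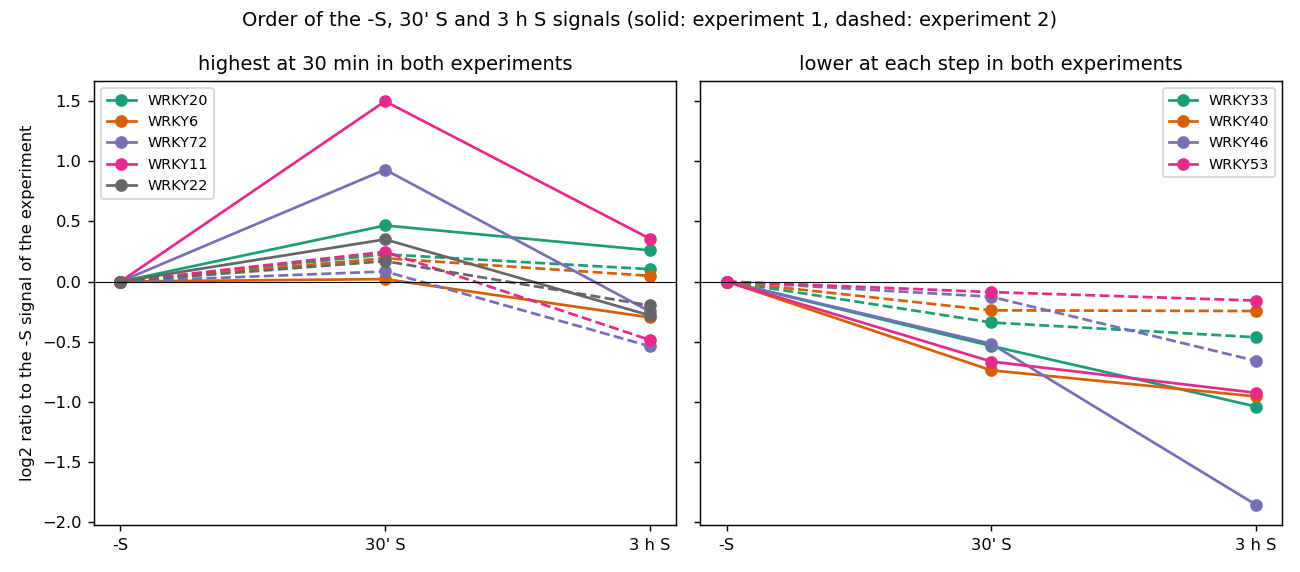
Log2 ratio to the -S signal of the same experiment in -S, 30' S and 3 h S seedlings (solid lines, experiment 1; dashed lines, experiment 2), for the 5 WRKY members highest at 30 min in both experiments (left) and the 4 lower at each step in both (right). The steps were larger in experiment 1, where WRKY11 was at 2.83 times -S after 30 min and WRKY46 at 0.276 times -S after 3 h.

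No member was called in 30' S over -S, where limma called 0.00629% of all probe sets, and none had an unadjusted p under 0.05 (2.92% of all probe sets). The largest differences were the 0.75 ± 0.34 of WRKY11 and the -0.39 ± 0.22 of WRKY40 on the log2 scale (limma, adjusted p = 0.999 for both). The median was 0.01 over the members and -0.01 over all probe sets.

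Most members had a lower signal in 3 h S than in 30' S. The 3 h S over 30' S ratio was below 1 in both experiments for 11 of 14 members, against 36.8% of all probe sets. The exceptions were WRKY43 and WRKY56, above 1 in both experiments (32.1% of all probe sets), and WRKY47, with 1.23 in experiment 1 and 0.794 in experiment 2. WRKY11 reached 0.452 and 0.601 times its 30' S signal, WRKY72 0.441 and 0.650 times, and WRKY25 0.664 and 0.624 times. On the log2 scale of limma these were -0.81 ± 0.34, -0.70 ± 0.28 and -0.56 ± 0.22, with adjusted p = 0.331, 0.315 and 0.308. No member was called lower, against 0.17% of all probe sets, and these 3 had an unadjusted p under 0.05 (6.68% of all probe sets). In a fit of the 30' S and 3 h S arrays alone, WRKY11, WRKY25 and WRKY72 were called lower (adjusted p = 0.0175, 0.0424 and 0.0341), when 3.03% of all probe sets were.

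In 3 h S over -S, 8 of 14 members had ratios below 1 in both experiments (WRKY22, WRKY25, WRKY33, WRKY40, WRKY46, WRKY53, WRKY54 and WRKY72), against 37.8% of all probe sets. WRKY46 was at 0.276 and 0.633 times its -S signal, WRKY33 at 0.486 and 0.725 times, and WRKY40 at 0.515 and 0.843 times. WRKY25 was at 0.601 and 0.700 times. Of the 8, WRKY22 and WRKY53 alone were named by the platform annotation. A high -S signal in experiment 1 was part of how the others were named, and WRKY54 passed the signal rule in part through it. That signal is the base of this ratio in experiment 1. The count and the p-values below are therefore not independent of the naming. WRKY20 alone was above 1 in both experiments (1.20 and 1.07), against 31.6% of all probe sets. No member was called (0.359% of all probe sets were called lower). WRKY25 and WRKY33 had an unadjusted p under 0.05 (5.99% of all probe sets), with log2 fold changes of -0.55 ± 0.22 and -0.63 ± 0.26 (limma, adjusted p = 0.323 and 0.340).

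These resupply comparisons use no FN array, but the FN arrays enter the estimate of spread. When either was left out, the other had a term of its own and the spread came from the 6 -S medium arrays. In that fit 3 members were called lower in 3 h S over -S, when 2.63% of all probe sets were, namely WRKY25 (adjusted p = 0.0391), WRKY33 (adjusted p = 0.0393) and WRKY46 (adjusted p = 0.0312). In 3 h S over 30' S, WRKY25 (adjusted p = 0.0360) and WRKY72 (adjusted p = 0.0417) were called lower, when 3.57% were. In 30' S over -S none was called. The fold changes themselves stayed the same, since they come from the -S medium arrays in both fits.

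**Figure D4:**
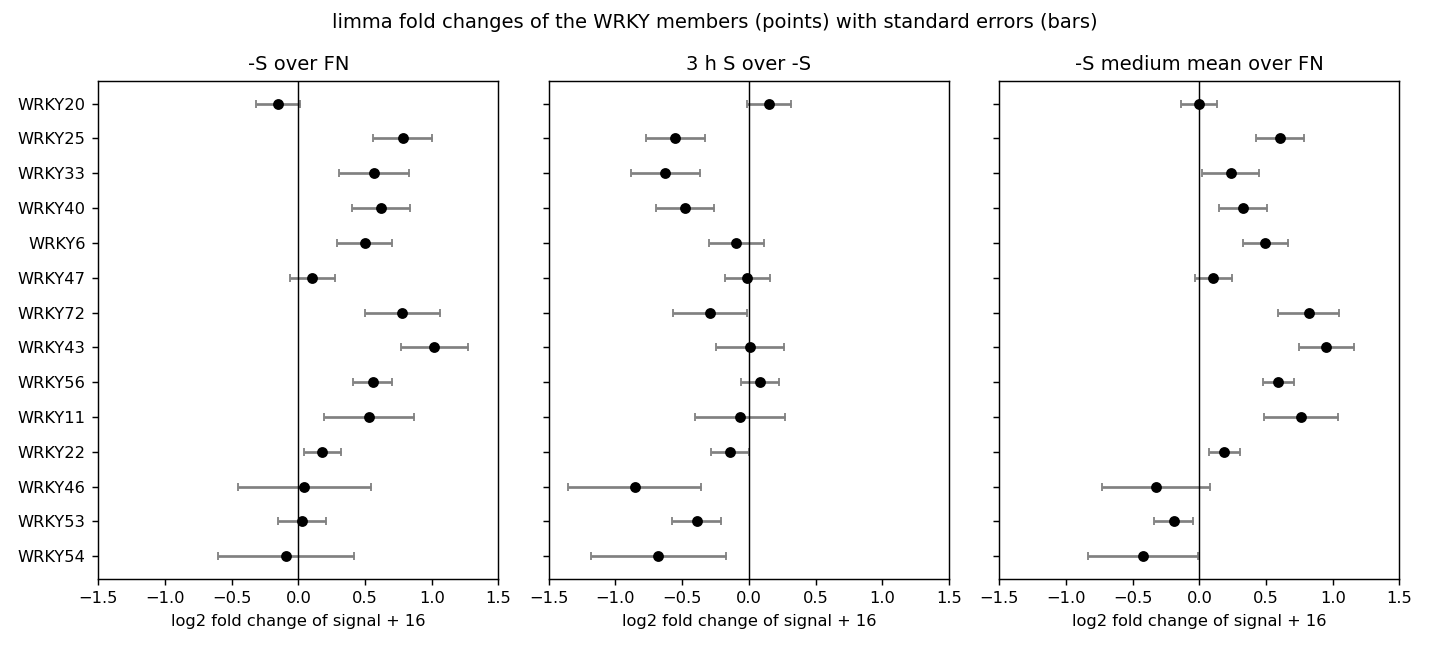
Log2 fold changes of limma on the signal + 16 scale (points) with their standard errors (bars) for the 14 WRKY members in -S over FN, 3 h S over -S and the mean of the 3 -S medium conditions over FN, each from 8 arrays. None passed the adjusted limit, WRKY46 and WRKY54 had the widest errors in each panel, and 11 of 14 members were below 0 in 3 h S over -S. Of these 11, 7 had been named in part by a high -S signal in experiment 1.

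Set against FN, 3 h of resupply left no member called in either direction (0.434% of all probe sets higher, 0.151% lower), and the median log2 fold change was 0.12 over the members and 0.04 over all probe sets. Counts of members above FN are a description here too, because of the naming. WRKY6, WRKY43, WRKY56 and WRKY72 were above FN in both experiments, against 34.6% of all probe sets. WRKY46 and WRKY53 were below FN in both, against 28.1%. WRKY46 had 19.0 and 24.8 in 3 h S, against 20.8 and 103.8 in FN, and the log2 fold change of -0.81 ± 0.50 (limma, adjusted p = 0.395) turned on the FN array. It was -1.78 ± 0.24 without FN of experiment 1 (adjusted p = 0.0102, 0.742% of all probe sets called lower) and 0.16 without FN of experiment 2. WRKY43 and WRKY56, at 1.03 ± 0.25 and 0.64 ± 0.14, had an unadjusted p under 0.05 (10.8% of all probe sets), with adjusted p = 0.128 and 0.109. Without FN of experiment 2, 6 members were called higher (WRKY6, WRKY11, WRKY25, WRKY43, WRKY56 and WRKY72), when 16.6% of all probe sets were.

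Averaged over the 3 -S medium conditions, no member was called against FN (1.59% of all probe sets higher, 0.963% lower), and WRKY6, WRKY11, WRKY25, WRKY43, WRKY56 and WRKY72 had an unadjusted p under 0.05 as higher (15.7% of all probe sets). For WRKY72 the log2 fold change was 0.82 ± 0.23 (limma, adjusted p = 0.0935), and for WRKY25 it was 0.60 ± 0.18 (adjusted p = 0.103). All 3 -S medium signals lay above FN in both experiments for WRKY6, WRKY43, WRKY56 and WRKY72, which is 4 of 14 against 18% of all probe sets. All 6 lay above both FN signals for WRKY43, WRKY56 and WRKY72 (10.4% of all probe sets), of which WRKY43 and WRKY56 passed the signal rule only through -S medium arrays. In experiment 1 alone the 3 signals were above FN for 11 members (40.3% of all probe sets). The naming had fixed these counts above FN in part, so they are a description. In experiment 2 they were all below FN for WRKY20, WRKY46, WRKY53 and WRKY54 (24.4% of all probe sets), of which WRKY54 passed the signal rule in part through that FN array. Without FN of experiment 2, 9 members were called higher (20.6% of all probe sets). Without FN of experiment 1 only WRKY46 was called, as lower, when 0.887% of all probe sets were.

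The FN arrays of the experiments were also compared. A low FN signal in experiment 1 was part of how the 9 table-named members were found, so the counts over all members are a description. The FN signal of experiment 2 was above that of experiment 1 for 12 of 14 members, against 51.2% of all probe sets, and WRKY20 and WRKY56 were the exceptions. It was more than 2 times as high for 6 members (WRKY6, WRKY11, WRKY43, WRKY46, WRKY54 and WRKY72), against 8.68% of all probe sets. WRKY54 passed the signal rule in part through the FN array of experiment 2, so its ratio is not independent of that rule. For WRKY46 it was 103.8 in experiment 2, against 20.8 in experiment 1, a ratio of 4.99. For WRKY11 it was 85.6 in experiment 2, against 26.4 in experiment 1, a ratio of 3.24. The median ratio was 1.58 over the members and 1.01 over all probe sets tested. With the FN arrays scaled to 1 median, 12 members were above 1 and 5 above 2, without WRKY72, and the median was 1.43. On -S medium the geometric mean of the 3 signals gave ratios of experiment 2 over experiment 1 between 0.562 for WRKY43 and 1.31 for WRKY47. Its median was 0.829 over the members and 0.992 over all probe sets. Among the 5 annotation-named members the FN ratios were 2.24 for WRKY6, 1.36 for WRKY47, 1.30 for WRKY53, 1.19 for WRKY22 and 0.898 for WRKY20. WRKY20 and WRKY56 differed more on -S medium, with ratios of 0.633 and 0.659, than in FN, with 0.898 and 0.829. WRKY43 and WRKY56 passed the signal rule only through -S medium arrays of experiment 1. Their low ratios on -S medium follow in part from that rule.

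**Figure D5:**
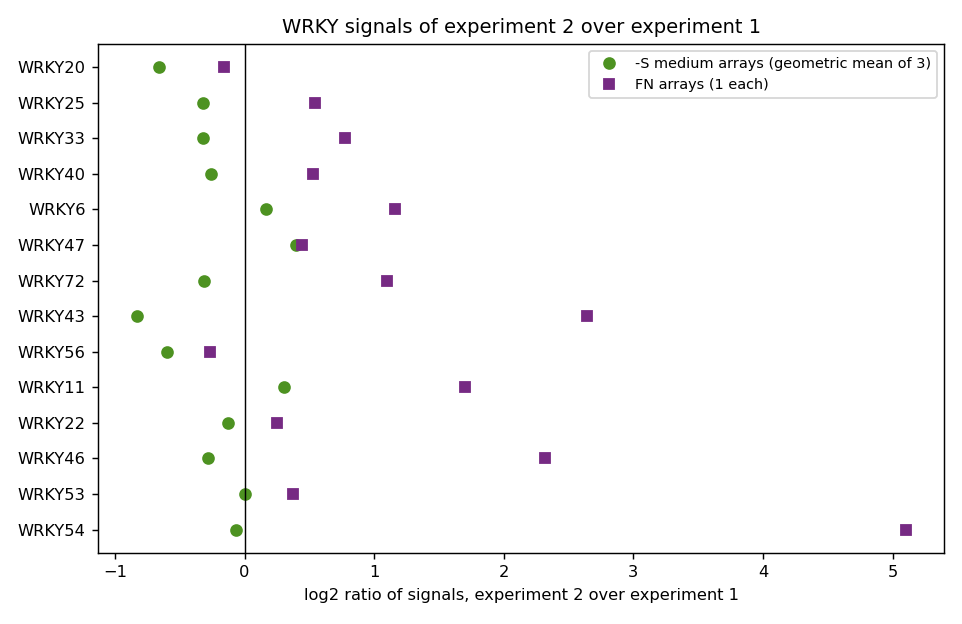
Log2 ratio of the signals of experiment 2 over experiment 1 for the 14 WRKY members, for the geometric mean of the 3 -S medium arrays (green circles) and for the FN array (purple squares). The square lies right of the circle for every member, with a small gap for WRKY47 (ratios of 1.31 on -S medium and 1.36 in FN) and the widest for WRKY54 (0.958 on -S medium and 34.4 in FN). WRKY54 passed the signal rule in part through the FN array of experiment 2.

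The difference between experiments was tested as the log2 fold change of the -S medium mean over FN in experiment 1 minus that in experiment 2. The spread came from the 3 -S medium arrays of each experiment, and the lone FN arrays were assumed to vary like them. Those 3 arrays are -S, 30' S and 3 h S, so a response to resupply counted as spread. The test was thus less sensitive for members that changed on resupply. The difference was positive for 14 of 14 members, a direction that the naming had fixed in part for 9 of them (13 of 14 after quantile normalization). Its median was 0.70 over the members and 0.05 over all probe sets. No member passed the limit, against 0.296% of all probe sets called in this direction and 0.44% in the other. WRKY46 had the largest difference, 1.94 ± 0.60 (limma, adjusted p = 0.176), followed by WRKY54 with 1.76 ± 0.60 (adjusted p = 0.207). WRKY54 passed the signal rule only through -S of experiment 1 and FN of experiment 2, which both raise this difference. Its size and p-value are therefore not independent of the rule. WRKY6 and WRKY43, with 0.66 ± 0.24 and 0.79 ± 0.30, also had an unadjusted p under 0.05 (8.17% of all probe sets, adjusted p = 0.230 and 0.263). For WRKY56 the difference was 0.24 ± 0.21 (adjusted p = 0.673). WRKY43 and WRKY56 passed the signal rule only through -S medium arrays of experiment 1, which raise this difference, so their values are not independent of the rule.

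The genes around the family were covered unevenly. Apart from ZAT10, the tested genes of the lists below were named through the study's supplementary tables. Their differences from FN in experiment 1 may therefore follow from the naming, as for the 9 WRKY members. For genes that the study lists as changed in both experiments, the same may hold in experiment 2. In camalexin synthesis, the pathway that WRKY33 controls, 3 of 6 listed genes were tested. PAD3, which catalyses the last step, had 112.4 in -S, 106.3 in 30' S and 34.4 in 3 h S, against 1.3 in FN of experiment 1. In experiment 2 it had 53.7, 66.0 and 41.4, against 119.3 in FN. FN was the lowest signal of PAD3 in experiment 1 and the highest in experiment 2, and the gene was not called in -S over FN (log2 fold change 0.97 ± 0.83, limma, adjusted p = 0.511). CYP79B2 and CYP79B3, which make the indole precursor shared with indole glucosinolates, were called lower in -S than in FN, at -2.23 ± 0.15 and -2.74 ± 0.29 (limma, adjusted p = 0.000995 and 0.00672). Both were called higher in 3 h S than in -S, at 2.76 ± 0.15 and 3.10 ± 0.29 (limma, adjusted p = 0.00125 and 0.00574).

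Among the VQ proteins that bind WRKY factors, 1 of 7 listed genes was tested. SIB1, a partner of WRKY33, had 33.5 in -S, 24.2 in 30' S and 24.5 in 3 h S, against 8.7 in FN of experiment 1. Experiment 2 gave 32.6, 19.4 and 19.7, against 59.8 in FN. FN was thus the lowest signal of SIB1 in experiment 1, which may follow from the naming, and the highest in experiment 2. The difference between experiments was 1.75 ± 0.32 for SIB1 on the log2 scale (limma, adjusted p = 0.0581). Of the kinase cascade list only MKK9, an upstream kinase of MPK3 and MPK6, was measured (1 of 8), with 134.6 and 116.7 in -S, against 32.2 and 102.7 in FN. Its log2 fold change was 0.90 ± 0.36 (limma, adjusted p = 0.212). None of the 10 listed salicylate genes had a named probe set.

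Of 10 listed touch and early stress genes, 5 were tested and ZAT12, a zinc finger factor of oxidative stress, was called higher in -S. It had 115.7 and 162.8 in -S, against 54.2 and 78.2 in FN, with a log2 fold change of 0.92 ± 0.15 (limma, adjusted p = 0.0406). The study counts ZAT12 among the factors raised over 2-fold in both experiments, and it was named through the study's tables. Its call is therefore a description. ZAT10, ERF4, JAZ1 and LOX3 were not called in any comparison. Of 9 listed phosphate genes only PHO2, which lowers phosphate transport to the shoot, was tested, and it was not called. In the list around TTG2, the trichome factor that is itself a WRKY protein without a WRKY number in its symbol, TTG1 and TT12 were tested and not called. TTG2 had at most 9.2 on any array.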

How the data were processed

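RNA of 9-day-old seedlings was hybridised to Affymetrix ATH1 arrays. The deposited values are intensity signals on a linear scale, made by the authors with MAS 5.0 and scaled per array (trimmed mean of 99.4 with 2% cut at each end). Depth has no counterpart here, and 2 arrays per condition limit the precision. The study describes the experiments as biological replicates, grown independently. With the experiment as a block, p-values measure how much differences between conditions varied between experiments, without the overall shift between them. In the test of the difference between experiments the spread came from the -S medium arrays within each experiment. Probe sets were named by the platform annotation (13513 with 1 gene, 503 with several). A further 35 were named by locus and probe set pairs of the study's supplementary tables, 11 of them for genes with a WRKY number and the others for listed genes. Symbols came from RefSeq (assembly TAIR10.1). No value of those tables was used. Probes of related WRKY genes may share target sequence, which was not tested.

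Signals were analysed with limma 3.58.1 in R 4.3.3 (lmFit and eBayes on log2(signal + 16), a term per condition and the experiment as a block), and ratios and plots were made in Python 3.11.15 (numpy 2.4.6, pandas 2.3.3, matplotlib 3.10.9). The fit had 3 residual degrees of freedom. The block follows the labels, which number the experiments. As a check of the pairing, deviations of experiment 1 and 2 correlated across probe sets at r = 0.60 to 0.72 for pairs of -S medium conditions and at r = 0.07 to 0.31 for pairs with FN. The script was tested on simulated data. Raw ratios were formed within each experiment without an offset.

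Genes named with values are WRKY33, WRKY40 and WRKY56, members called or past 2-fold in -S over FN in an experiment, the 3 highest and 3 lowest log2 fold changes of each comparison, and called genes of the lists. Other genes were named after their values were seen. The members and lists were chosen with earlier results of these data known. Alternatives were the offset, the filter, the scaling, the block, the arrays fitted, the methods' test and each array left out.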

Additional observations from a re-analysis of the deposited data

Results flagged for a closer look

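The difference between experiments passed the limit for 1 of the genes followed here, PSAN, a photosystem subunit gene chosen after its values were seen, so its p is no independent evidence. The same test called 117 of 15893 probe sets, 70 with a negative difference (0.44%) and 47 with a positive one (0.296%). PSAN had a log2 fold change of the -S medium mean over FN that was -1.72 ± 0.26 in experiment 1 minus experiment 2 (limma, adjusted p = 0.0429). Its signals were 430.9 in -S, 383.9 in 30' S and 429.6 in 3 h S, against 1638 in FN of experiment 1. In experiment 2 they were 887.3, 770.7 and 686.1, against 912.8 in FN. The PSAN difference has the opposite sign to that of all 14 WRKY members, and its part in the WRKY values was not tested. No WRKY member passed this test.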

How the results depend on the processing

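Settings other than the array left out changed few calls of the WRKY members. The count of members called lower in 3 h S over 30' S was 3 with these conditions fitted alone, and the count called higher in the -S medium mean over FN was 1 with an offset of 1 and 1 after quantile normalization, in place of 0. A larger offset, no filter on low signals, signals below 20 raised to 20, an intensity trend, median centring and no replicate block gave 0 called members in each comparison they were run on. A mean signal of at least 50 left 7 members, with 0 called. The methods' test gave 0 called members, also at an unadjusted p under 0.05. With all 17 named WRKY probe sets and no signal rule 0 were called.

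With each array left out in turn, the members called ranged between 0 and 9 as higher in -S over FN, 0 and 3 as lower in 3 h S over -S, 0 and 2 as lower in 3 h S over 30' S, 0 and 6 as higher and 0 and 1 as lower in 3 h S over FN, and 0 and 9 as higher and 0 and 1 as lower in the -S medium mean over FN. Each count above 0 came from leaving out an FN array. Of 490 alternative values of the 34 member fold changes of at least 0.5 in size on the log2 scale, 457 kept direction and side of the limit, 30 passed the limit and 3 changed sign. These were WRKY54 in 3 h S over -S without the -S array of experiment 1 (0.11, the range over arrays left out being -1.47 to 0.11), WRKY54 in 3 h S over FN without FN of experiment 2 (-1.66 to 0.11) and WRKY46 in 3 h S over FN without FN of experiment 2 (-1.78 to 0.16). With 1 array left in a condition, that array was assumed to vary like the others. With 2 arrays per condition and signals near 20, smaller changes of WRKY22, WRKY43, WRKY54 and WRKY56 were not resolved.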
